A study of Mus musculus with 11 samples.

Results

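T cells cultured for 4 days with liver dendritic cells were compared with T cells cultured with spleen dendritic cells. The comparison was defined by the sample labels, and it rests on 5 of the 11 arrays of the study, 3 with liver and 2 with spleen dendritic cells. All T cells were of the mouse strain B10.BR and all dendritic cells were of the strain C57BL/6. Each array was single-colour and carried 1 RNA sample. The liver arrays carry the numbers 2, 3 and 4 and the spleen arrays the numbers 3 and 4, so the organs could be compared directly within number 3 and within number 4. The liver array numbered 2 has no spleen array of its number. It added to the estimate of the spread and also entered the fitted liver mean. The remaining 6 arrays came from cultures with MLN and PLN dendritic cells and entered the fit as well. The labels do not spell out these abbreviations, which customarily stand for mesenteric and peripheral lymph node. Through the MLN and PLN arrays numbered 2, the liver array numbered 2 also shifted the fitted difference between liver and spleen. A fitted difference can therefore lie outside both same-number differences, as for S100a4 (0.67, against 0.58 within number 3 and 0.54 within number 4). Whether arrays of 1 organ stem from separate cultures or mice is not stated in the labels. Every p-value here therefore reflects array-to-array spread only, and that spread may be technical. They give neither T cells without dendritic cells nor the subset, purity or dose of either cell.

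B10.BR and C57BL/6 mice carry different major histocompatibility haplotypes, and the T cells respond to the foreign histocompatibility molecules on the dendritic cells. Dendritic cells take up antigen, present it and provide costimulation and cytokines, which steer the helper, killer or regulatory program and the homing receptors that the T cells acquire. Liver dendritic cells are known in the literature as weak stimulators relative to those of spleen, and dividing T cells are known to raise glucose uptake and glycolysis. Levels below are log2(intensity + 16) after quantile normalization, called log2 intensity, and differences are liver minus spleen on that scale. Fewer cells of a type and less RNA per cell cannot be told apart in such bulk RNA.

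No gene passed the test between liver and spleen cultures (0 of 7436 genes, 0%, limma with the array number as a block, adjusted p under 0.05). The smallest adjusted p was 0.134, for Il17a, the cytokine that defines interleukin 17-producing T cells, which lay lower in liver cultures. At an unadjusted p under 0.05 there were 643 genes, of which 304 (4.09% of those tested) lay higher and 339 (4.56%) lower in liver cultures. Under median centring in place of quantile normalization, the split was 425 higher and 159 lower, and the median of all genes shifted to 0.07 from -0.00. The number of arrays limits the precision. The median 95% interval extended 0.28 to either side of the fitted difference, and the 5th and 95th percentiles of that half-width were 0.17 and 0.53. A p that misses the threshold therefore does not show that the 2 kinds of culture are alike.

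The calls depended on single arrays. Without the spleen array numbered 4, 6 genes passed in the limma test. Malat1, a long noncoding RNA, Atrx, a chromatin remodeller, and the granzyme genes Gzmd, Gzme and Gzmg were then higher in liver cultures, and Il17a was lower (adjusted p 0.0306). Without the spleen array numbered 3, Exd2 passed as higher (adjusted p 0.0023), and without the liver array numbered 3, Selenbp1 (0.0179) and Ero1a, an endoplasmic reticulum oxidase (0.0249), passed as lower. Malat1 differed by 2.34 within number 3 and -0.08 within number 4, and Exd2 by 0.19 and 2.28, so each of these calls rests on the 1 spleen array left in the fit. Atrx likewise differed by 1.46 and -0.27. Gzmg lay at 1.39 and 0.40, Selenbp1 at -0.31 and -1.43, and Ero1a at -0.14 and -0.30, each with the same sign in both pairs. All these genes were named from the values of these data, Il17a, Gzmd and Gzme by the rule on smallest p and the others after their calls were seen. Without a spleen array, the other spleen array stands alone for its organ and is assumed to vary like the arrays of the other organs. Each of the other single-array omissions gave 0 passing genes.

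Both same-number pairs could be read as separate measurements of the organ difference. Across the 7436 genes, the differences within number 3 and within number 4 had similar spreads (SD 0.27 and 0.28) and a Pearson correlation of 0.10 (Spearman 0.09). This is a description across genes, which are not independent replicates. The sign was the same in both pairs for 3937 genes (52.9%), with 1961 (26.4%) higher and 1976 (26.6%) lower in liver cultures in both. A difference over 1 was seen for 44 genes within number 3 and 42 within number 4. In 2 genes it was seen in both with the same sign, Aif1l and Slc20a2, a phosphate transporter, both lower in liver cultures and both named after their values were seen. A difference over 0.5 in both pairs was seen for 15 genes on the higher side and 35 on the lower side. The liver and spleen arrays did not overlap for 955 genes (12.8%).

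**Figure D1:**
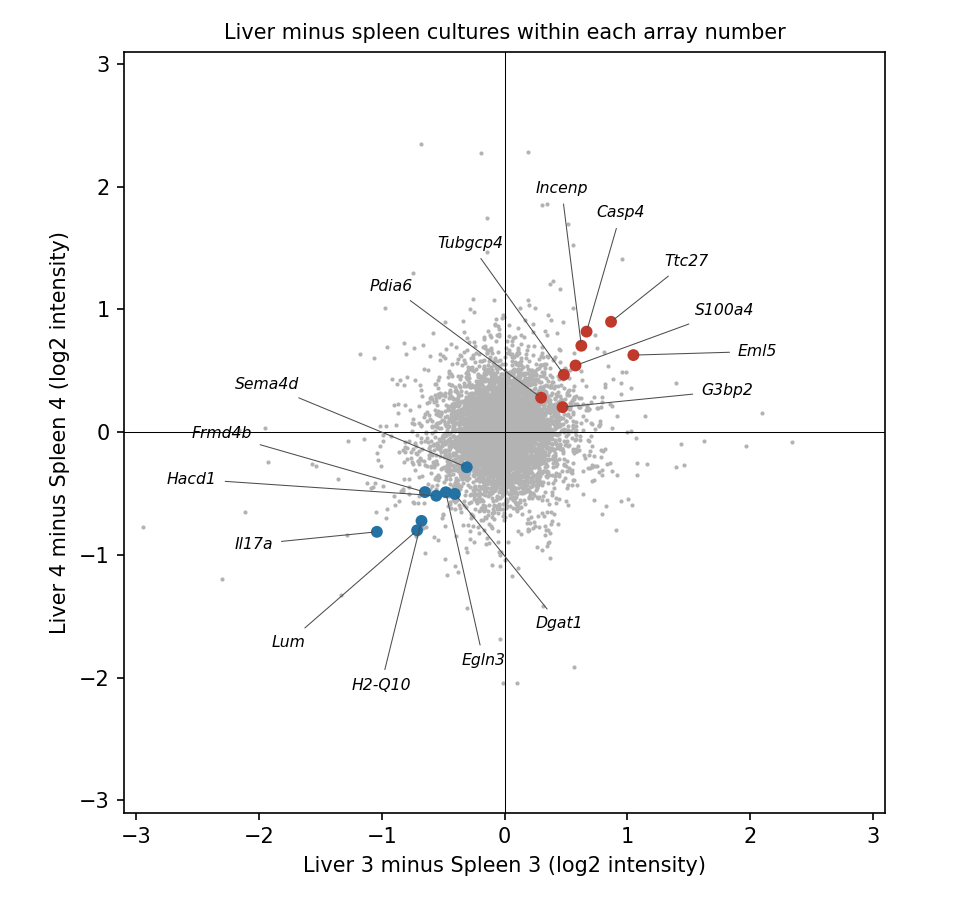
Each grey point is 1 of the 7436 genes tested, with the liver minus spleen difference (log2 intensity) within number 3 on the horizontal axis and within number 4 on the vertical axis. The 8 genes of smallest p in each direction (red, higher in liver cultures; blue, lower) were picked from a fit that holds these pairs, so their place away from 0 follows from the choice. The whole cloud has a correlation of 0.10.

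Liver and spleen arrays of the same number resembled each other more than arrays within either of these organs. The SD of the gene-wise differences was 0.267 between Liver 3 and Spleen 3 and 0.280 between Liver 4 and Spleen 4. Between the 2 spleen arrays it was 0.515, and among the liver arrays it ran from 0.338 to 0.443. A fit without the number gave 0 passing genes and 131 at an unadjusted p under 0.05. What the number stands for is not in the labels. The deposited arrays had median intensities from 144.3 to 170.4, highest in Spleen 4, which also had the fewest probe sets under an intensity of 16 (12.9%, against up to 16.5% elsewhere).

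Il17a had the smallest p of all genes. Its log2 intensity was 8.67, 10.19 and 8.43 in Liver 2, 3 and 4, and 11.23 and 9.25 in Spleen 3 and 4. The arrays of the 2 organs overlapped (mean 9.10 ± 0.95, SD, n = 3, against 10.24 ± 1.40, SD, n = 2), because both arrays numbered 3 lay high. The difference was -1.04 within number 3 and -0.81 within number 4, so liver lay below spleen in both. The fitted difference was -1.0 (SE 0.15, 95% interval -1.32 to -0.68, limma adjusted p 0.134). Over all alternatives it ran from -1.23 to -0.78, and the limma adjusted p from 0.0306 to 0.99997. Il17a has 1 named probe set on the array.

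The sequence before the start of Il17a is shown because this gene had the smallest p. The RefSeq window of GRCm38.p6 at chr1:20730655-20730954 on the plus strand holds 300 bases around the transcription start, and capitals mark a match to AGGTCA on either strand. That run is the core of the element bound by ROR family receptors, which drive interleukin 17 transcription, and also by other nuclear receptors.
Il17a: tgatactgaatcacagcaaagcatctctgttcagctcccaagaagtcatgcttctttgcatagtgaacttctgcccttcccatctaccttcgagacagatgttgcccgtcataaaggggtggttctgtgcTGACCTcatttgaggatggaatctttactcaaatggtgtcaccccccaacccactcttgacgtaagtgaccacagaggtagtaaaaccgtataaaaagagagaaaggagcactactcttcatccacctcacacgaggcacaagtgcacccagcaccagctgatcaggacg
The window held 1 match. Of the 9 tested genes of the interleukin 17 and follicular helper list with a promoter in the RefSeq table, 3 (33.3%) held 1, as did 12% of the 6102 tested genes with a promoter and 16% of all 27025 promoters. A match is a description of the letters and not a binding site.

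Of the 13 tested members of that list, 0 passed, and 2 lay lower at an unadjusted p under 0.05 (4.56% of all genes). In both pairs 4 were lower and 2 higher (26.6% and 26.4% of all genes), and the median was -0.06 (all genes tested, -0.00). Ahr, the aryl hydrocarbon receptor, which promotes interleukin 17 and 22 programs, had levels of 8.11, 8.90 and 7.10 in Liver 2, 3 and 4 and 9.74 and 7.58 in Spleen 3 and 4. Its fitted difference was -0.60 (95% interval -0.998 to -0.21, limma adjusted p 0.446). Il6ra, the interleukin 6 receptor, lay at -0.41 (95% interval -0.82 to 0.00). On this probe set Ahr followed the Il17a order in both numbers, and Ahr and Il17a both had arrays numbered 3 above those numbered 4. A second, dimmer probe set of Ahr gave -0.11, with -0.53 within number 3 and 0.30 within number 4. The second, dimmer set of Il6ra gave 0.12.

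The genes of smallest p on the side higher in liver cultures are described first. Casp4, an inflammatory caspase that senses bacterial lipopolysaccharide in the cytosol, had levels of 8.11, 8.63 and 8.20 in Liver 2, 3 and 4 and 7.96 and 7.38 in Spleen 3 and 4. No liver array overlapped the spleen arrays, and the fitted difference was 0.72 (SE 0.13, 95% interval 0.43 to 1.01, limma adjusted p 0.232). Incenp, the scaffold of the chromosomal passenger complex in mitosis, was at 11.50, 11.44 and 11.34 against 10.82 and 10.63. Its difference was 0.66 (95% interval 0.39 to 0.92, limma adjusted p 0.232), but its other 2 probe sets, which were dimmer, gave -0.18 and 0.15. Ttc27 had levels of 8.36, 8.86 and 7.96 against 7.99 and 7.07, and the fit gave 0.85 (95% interval 0.49 to 1.21). S100a4, a calcium-binding protein associated with cell motility, was at 11.30, 10.85 and 11.94 against 10.27 and 11.39. Its difference was 0.67 (95% interval 0.32 to 1.01), with 0.58 within number 3 and 0.54 within number 4.

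The other genes of this group were Eml5, a microtubule-associated protein gene, Tubgcp4, a component of the gamma-tubulin ring, Pdia6, a disulphide isomerase of the endoplasmic reticulum, and G3bp2, a stress granule protein gene. Their fitted differences were 0.89, 0.49, 0.32 and 0.34, and each lay higher in liver cultures within both numbers. Probe sets disagreed for all 4. The other sets gave -0.04 and -0.08 for Eml5, -0.02 for Tubgcp4, -0.25 for a dim set of Pdia6, and -0.03 and 0.19 for G3bp2. Adjusted p-values in limma for these 4 genes were 0.371 for Eml5 and 0.444 for each of the others.

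On the side lower in liver cultures, the genes of smallest p after Il17a were Dgat1, H2-Q10 and Egln3. Dgat1, which makes triglyceride from diacylglycerol, was at 10.76, 10.52 and 11.03 in Liver 2, 3 and 4 and 10.92 and 11.53 in Spleen 3 and 4. Its difference was -0.44 (SE 0.08, 95% interval -0.62 to -0.27, limma adjusted p 0.232), with -0.40 and -0.50 within numbers 3 and 4. H2-Q10, a nonclassical class I histocompatibility gene, had levels of 8.41, 8.74 and 9.88 against 9.42 and 10.60. Here the fit gave -0.83 (95% interval -1.16 to -0.49, limma adjusted p 0.232). Class I genes are closely related and differ between the strains, so the signal of a single class I gene is uncertain. Hacd1, an enzyme of fatty acid elongation, had liver levels of 8.71, 8.65 and 8.81, all below the spleen levels of 9.21 and 9.32. Its difference was -0.51 (95% interval -0.74 to -0.27, limma adjusted p 0.371).

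Sema4d, a transmembrane semaphorin of lymphocytes, showed a small difference with a narrow interval, at -0.29 (95% interval -0.42 to -0.16, limma adjusted p 0.364). It lay lower in the liver array by like amounts in both pairs, at -0.31 within number 3 and -0.29 within number 4. Its relative Sema4a lay the other way, at 0.40 (95% interval 0.19 to 0.61, limma adjusted p 0.444). Among 9 tested semaphorin and plexin genes 0 passed, and the median was -0.09. At an unadjusted p under 0.05, 1 lay higher and 2 lower (4.09% and 4.56% of all genes). Frmd4b (-0.53) and Lum (-0.72) completed the genes of smallest p on the lower side. The other probe sets of Frmd4b, all dimmer, gave -0.23, -0.13 and 0.29. Lum encodes lumican, a matrix proteoglycan of fibroblasts, and is described with the markers of other cells.

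**Figure D2:**
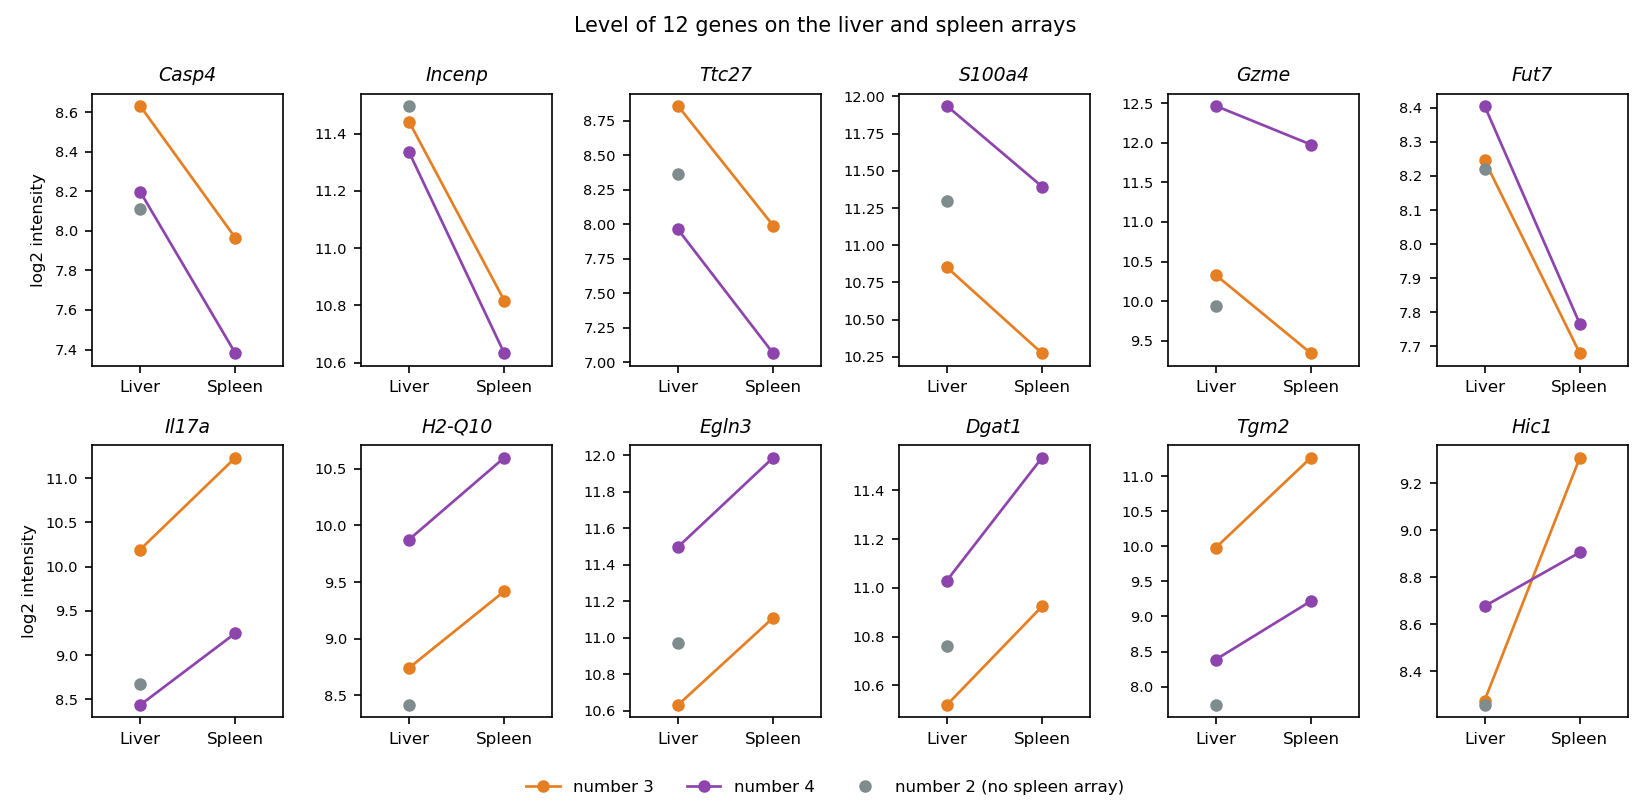
Log2 intensity of 12 genes on the liver and spleen arrays, with lines joining arrays of the same number (3, orange; 4, purple) and the unpaired Liver 2 in grey. The upper 6 genes lay higher and the lower 6 lower in the liver array within both numbers. For Il17a, Gzme, Tgm2, H2-Q10, Egln3, S100a4 and Dgat1, the step between numbers 3 and 4 in either organ exceeded the step between organs.

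The glycolysis and hypoxia genes leaned lower in liver cultures. None of the 22 tested members passed, 12 lay lower and 0 higher at an unadjusted p under 0.05 (4.56% and 4.09% of all genes), and 16 (72.7%) were lower in both pairs against 26.6% of all genes. The median was -0.17 against -0.00 for all genes, at -0.12 within number 3 and -0.18 within number 4. The count at the unadjusted threshold depended on the treatment of the arrays. It was 1 in the fit without the number, 5 on the intensities as deposited and 2 under median centring, where 15 of 22 lay lower with a median of -0.06 and all genes had a median of 0.07. Without the liver array numbered 2 and without either spleen array it was 7. The sum of the deposited intensities of the list went the other way, at 96604 in Liver 3 against 94023 in Spleen 3 and 126707 in Liver 4 against 117431 in Spleen 4. Such sums precede quantile normalization and weigh bright members most. The respiratory chain list, with a fitted median of 0.01, also summed higher in liver, at 97970 against 93041 and 102538 against 92547. The regulatory T cell list summed lower, at 29389 against 32030 and 26816 against 27740.

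Members with the smallest p in the list included an oxygen sensor and a glucose transporter. Egln3, a prolyl hydroxylase that marks hypoxia-inducible factor for destruction and is itself induced by it, was at 10.97, 10.63 and 11.50 in Liver 2, 3 and 4 and 11.11 and 11.99 in Spleen 3 and 4. Its difference was -0.52 (SE 0.10, 95% interval -0.73 to -0.30, limma adjusted p 0.253), with -0.48 and -0.49 within numbers 3 and 4, and its second probe set gave -0.81. Vegfa, the angiogenic factor, lay at -0.44 (95% interval -0.76 to -0.11). Slc2a3, the glucose transporter GLUT3, was at 12.55, 11.80 and 13.12 against 12.29 and 13.33, a difference of -0.37 (95% interval -0.58 to -0.16, limma adjusted p 0.446). Hif1a, the oxygen-regulated subunit of the factor, lay at -0.25 (95% interval -0.40 to -0.10, limma adjusted p 0.446), and its other 3 probe sets gave -0.25, -0.14 and 0.11. Of the 22 members, 1 had a fitted difference above 0, and 7 did under median centring.

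The promoters of Egln3 and Hif1a are shown because these genes of the list lay lower in both pairs and stand at the centre of the oxygen response. Capitals mark ACGTG or GCGTG on either strand, the core letters of the element that hypoxia-inducible factor binds. The RefSeq windows of GRCm38.p6 are chr12:54203825-54204124 on the minus strand for Egln3 and chr12:73907617-73907916 on the plus strand for Hif1a, each 5′ to 3′ along the gene.
Egln3: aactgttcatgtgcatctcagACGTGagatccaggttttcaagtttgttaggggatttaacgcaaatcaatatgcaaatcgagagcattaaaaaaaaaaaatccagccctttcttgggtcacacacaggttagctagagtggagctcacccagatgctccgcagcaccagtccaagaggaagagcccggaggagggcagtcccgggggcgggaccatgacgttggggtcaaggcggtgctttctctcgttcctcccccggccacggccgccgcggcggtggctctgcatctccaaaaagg
Hif1a: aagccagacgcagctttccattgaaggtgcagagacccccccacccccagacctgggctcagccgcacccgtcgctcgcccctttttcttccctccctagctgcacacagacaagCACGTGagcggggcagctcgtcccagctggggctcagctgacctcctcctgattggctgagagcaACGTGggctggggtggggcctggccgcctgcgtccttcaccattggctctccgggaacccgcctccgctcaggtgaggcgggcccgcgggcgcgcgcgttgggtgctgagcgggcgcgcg
The Egln3 window held 1 marked run and the Hif1a window 2, of which CACGTG reads as a match on both strands. Either motif was present in 16 of the 21 list members with a promoter (76.2%), in 65.8% of the tested genes and in 43.8% of all promoters. The 1 window of Vegfa that was searched, of 2 in the table, held 0 matches, and Slc2a3 was not matched to the promoter table.

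The cell cycle and mitosis genes leaned the other way. None of 37 tested members passed, and 6 lay higher and 1 lower at an unadjusted p under 0.05 (4.09% and 4.56% of all genes). In both pairs 20 (54.1%) were higher and 1 lower, against 26.4% and 26.6% of all genes. The median was 0.12, at 0.06 within number 3 and 0.17 within number 4. At the unadjusted threshold the count on the higher side was 0 in the fit without the number and 0 without the spleen array numbered 3, 3 without the liver array numbered 4 and 13 without the liver array numbered 3. Kif20a, a mitotic kinesin, was at 9.32, 9.34 and 9.10 in Liver 2, 3 and 4 and 9.04 and 8.77 in Spleen 3 and 4, a difference of 0.39 (95% interval 0.11 to 0.66, limma adjusted p 0.446). Cdc20, the activator of the anaphase-promoting complex, lay at 0.26 (95% interval 0.09 to 0.42), and its other probe sets gave 0.20 and 0.35. Mcm2, a subunit of the replicative helicase, lay at 0.24 (95% interval 0.06 to 0.41). A second, dimmer probe set of Mcm2 gave -0.08, with 0.13 within number 3 and -0.29 within number 4. Mki67, the proliferation marker, was at 0.16 (95% interval -0.02 to 0.33). Ccnd3, a D-type cyclin of the G1 phase, lay lower, at -0.24 (95% interval -0.42 to -0.06). All these differences were under 0.4 in size, and for Mcm2 the liver levels overlapped the spleen levels.

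**Figure D3:**
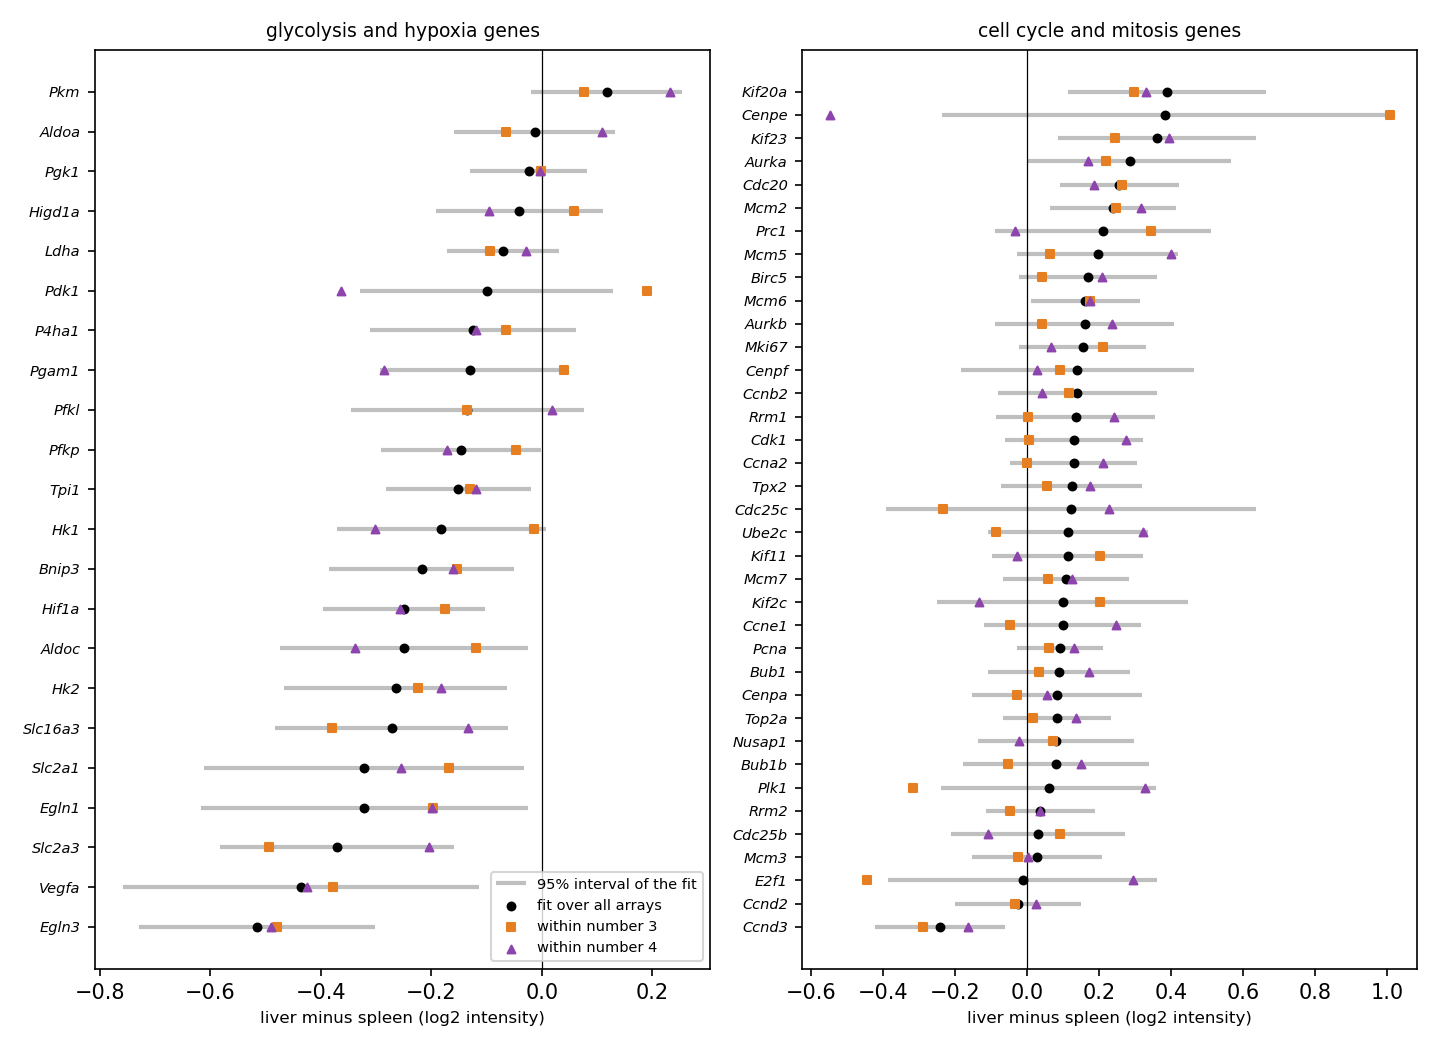
Liver minus spleen difference (log2 intensity) of every tested gene of the glycolysis and hypoxia list (left, 22 genes) and the cell cycle and mitosis list (right, 37 genes), with grey bars for the 95% interval of the fit. Most black points lie left of 0 on the left and right of 0 on the right, and no gene passed the test after adjustment.

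Killer cell genes were mixed within the list of 16 tested members, with granzymes D and E and perforin on the higher side. Of these 16, 0 passed, and 6 lay higher and 1 lower at an unadjusted p under 0.05 (4.09% and 4.56% of all genes). In both pairs 7 (43.8%) were higher and 2 lower (26.4% and 26.6% of all genes), and the median was 0.02. The median was 0.19 on the intensities as deposited, 0.28 under median centring and -0.02 without the liver array numbered 4. Gzme was at 9.94, 10.33 and 12.47 in Liver 2, 3 and 4 and 9.34 and 11.98 in Spleen 3 and 4, a difference of 0.67 (95% interval 0.32 to 1.02, limma adjusted p 0.444; 0.0341 without the spleen array numbered 4). Gzmd, its neighbour in the granzyme family, lay at 0.72 (95% interval 0.26 to 1.17), with 1.14 within number 3 and 0.13 within number 4. The 2 granzymes are closely related in sequence, so their probe sets may share signal. Prf1, the pore-forming perforin, lay at 0.46 (95% interval 0.20 to 0.72) and Ctsw, a protease of killer cells, at 0.30 (95% interval 0.08 to 0.53). Gzmb, the most abundant granzyme of killer T cells, differed by -0.01 within number 3 and 0.10 within number 4.

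Natural killer markers are given beside the granzymes, which such cells share with killer T cells. Of 7 tested, 0 passed, 2 lay higher at an unadjusted p under 0.05 (4.09% of all genes) and 5 (71.4%) were higher in both pairs (26.4% of all genes). Their median was 0.18, and 0.03 without the liver array numbered 3. It was 0.01 without the number on the liver and spleen arrays alone. Klrk1, the activating receptor NKG2D, which activated CD8 T cells also carry, was at 11.20, 10.59 and 10.90 in Liver 2, 3 and 4 against 9.91 and 10.72 in Spleen 3 and 4. The fit gave 0.47 (95% interval 0.15 to 0.78, limma adjusted p 0.446). Klrd1, the CD94 receptor chain, lay at 0.35 (95% interval -0.03 to 0.73). The summed intensity of the 10 measured markers was 6382 to 11418 in liver and 4962 to 10389 in spleen cultures. Among them Ncr1, Klra8 and Itga2 were too dim to test, and the part of natural killer cells in the granzyme values was not tested.

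No gene of the type 1, type 2 or regulatory T cell lists passed. Of 15 tested type 1 genes, 2 lay higher and 0 lower at an unadjusted p under 0.05 (4.09% and 4.56% of all genes), and 6 (40%) were higher and 1 lower in both pairs (26.4% and 26.6% of all genes). The median was 0.12. It ran from 0.03, without the number on the liver and spleen arrays alone, to 0.25 without the liver array numbered 3. Cxcr3, a chemokine receptor of type 1 cells, was at 9.82, 8.91 and 9.42 in Liver 2, 3 and 4 and 8.34 and 9.04 in Spleen 3 and 4, a difference of 0.64 (95% interval 0.23 to 1.05, limma adjusted p 0.446). Il18rap and Il18r1, the chains of the interleukin 18 receptor, lay at 0.45 (95% interval 0.11 to 0.80) and 0.44 (95% interval -0.11 to 0.999). Tbx21, the master regulator of the type 1 program, lay at 0.28 (95% interval -0.16 to 0.73). Ifng, its effector cytokine, differed by -0.29 within number 3 and 0.28 within number 4, so the pairs opposed each other.

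Among 11 tested type 2 genes, 3 lay lower at an unadjusted p under 0.05 (4.56% of all genes), and 5 (45.5%) were lower and 1 higher in both pairs (26.6% and 26.4% of all genes). The median was -0.16, but -0.59 without the spleen array numbered 4, -0.35 without the liver array numbered 4, -0.27 without the liver array numbered 3 and -0.42 in the fit without the number. The 2 pairs differed here, with medians of -0.31 within number 3 and 0.05 within number 4. Il4ra, the interleukin 4 receptor chain, was at 9.05, 9.43 and 9.26 in Liver 2, 3 and 4 and 9.98 and 9.35 in Spleen 3 and 4, a difference of -0.38 (95% interval -0.66 to -0.10, limma adjusted p 0.446). Nfil3, a transcription factor of cytokine responses, lay at -0.50 (95% interval -0.92 to -0.08) and Ecm1, a secreted protein known from type 2 cells, at -0.61 (95% interval -1.18 to -0.04). Gata3, the master regulator, differed by -0.31 within number 3 and 0.05 within number 4. Il10, the regulatory cytokine, lay at -0.38 (95% interval -0.96 to 0.19). Il4 lay under the level needed for testing, with 5.13, 6.37 and 6.05 in liver and 7.46 and 5.93 in spleen cultures.

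The regulatory T cell list had 13 tested members, of which 2 lay lower at an unadjusted p under 0.05 (4.56% of all genes) and 8 (61.5%) were lower and 1 higher in both pairs (26.6% and 26.4% of all genes). The median was -0.15, and -0.06 under median centring, where all genes had a median of 0.07. At the unadjusted threshold the lower count was 0 in the fit without the number and without the spleen array numbered 3, and 5 without the liver array numbered 3 or the spleen array numbered 4. Tnfrsf18, the receptor GITR, was at 12.21, 12.48 and 11.79 in Liver 2, 3 and 4 and 12.81 and 11.95 in Spleen 3 and 4, a difference of -0.31 (95% interval -0.52 to -0.09, limma adjusted p 0.446). Tnfrsf4, the costimulatory receptor OX40, lay at -0.29 (limma adjusted p 0.570). Both are also raised on any activated T cell. Foxp3, which defines regulatory T cells, was too dim to test, and it lay 0.15 and 0.10 higher in the liver array within numbers 3 and 4. The wider list of TNF receptors and ligands holds some of the same genes. Of its 16 tested members, 3 lay lower at an unadjusted p under 0.05 (4.56% of all genes). In both pairs 7 were lower and 4 higher (26.6% and 26.4% of all genes), and the median was -0.07.

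Of 17 tested genes of cytokine signalling and its feedback, 0 passed, and 4 lay lower and 0 higher at an unadjusted p under 0.05 (4.56% and 4.09% of all genes). In both pairs 10 (58.8%) were lower and 3 higher, against 26.6% and 26.4% of all genes. The median was -0.16, -0.05 without the spleen array numbered 3 and -0.06 under median centring, and without the number in the fit 0 lay lower at that threshold. Socs3, an inhibitor of cytokine receptors, was at 10.08, 10.35 and 10.29 in Liver 2, 3 and 4, all below 10.49 and 10.96 in Spleen 3 and 4. Its difference was -0.35 (95% interval -0.63 to -0.07, limma adjusted p 0.507). Stat5b, a transducer of interleukin 2 signals, lay at -0.33 (95% interval -0.60 to -0.07). The survival kinases Pim1 and Pim3 lay at -0.19 (95% interval -0.35 to -0.03) and -0.55 (95% interval -1.02 to -0.08).

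Among homing genes, Fut7 lay higher and Tgm2 and Hic1 lay lower in liver cultures, none past the adjusted threshold. Fut7, the fucosyltransferase that completes selectin ligands, was at 8.22, 8.25 and 8.41 in Liver 2, 3 and 4 and 7.68 and 7.77 in Spleen 3 and 4, with no overlap. Its difference was 0.63 (95% interval 0.21 to 1.05, limma adjusted p 0.446). Gcnt1, the branching enzyme of the same ligands, lay at 0.47 (95% interval 0.07 to 0.86). Over the 10 tested selectin ligand genes, 2 lay higher at an unadjusted p under 0.05 (4.09% of all genes). In both pairs 4 were higher and 1 lower (26.4% and 26.6% of all genes), and the median was 0.11.

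Of 10 tested gut homing and retinoic acid genes, 3 lay lower at an unadjusted p under 0.05, 6 were lower and 3 higher in both pairs, against 4.56%, 26.6% and 26.4% of all genes. The median was -0.07 and depended on the setting. It was -0.36 over the 4 members in the upper 40% by mean level, -0.12 without the liver array numbered 2, -0.14 without the spleen array numbered 3, -0.03 without the spleen array numbered 4 and -0.04 without the liver array numbered 3. Tgm2, transglutaminase 2, a classical target of retinoic acid receptors, had the largest difference of the genes named by rule, at 7.74, 9.98 and 8.38 in Liver 2, 3 and 4 and 11.27 and 9.22 in Spleen 3 and 4. The fit gave -1.27 (SE 0.31, 95% interval -1.94 to -0.59, limma adjusted p 0.446). Its 4 other bright probe sets gave -1.50, -1.37, -1.04 and -0.997, and a dim one -0.12. Hic1, a transcriptional repressor also induced by retinoic acid in T cells, was at 8.26, 8.28 and 8.68 against 9.31 and 8.91, with no overlap. Its difference was -0.70 (95% interval -1.04 to -0.35, limma adjusted p 0.444), but it was uneven, at -1.03 within number 3 and -0.23 within number 4. Rarg and Rara, retinoic acid receptors, lay at -0.49 (95% interval -0.93 to -0.04) and -0.35 (95% interval -0.83 to 0.12). Rarg differed by -0.45 within number 3 and -0.15 within number 4. A second, dimmer probe set of Rarg gave 0.22, with 0.59 within number 3 and -0.37 within number 4. Itga4, the alpha 4 integrin of gut homing, lay at 0.28 (95% interval -0.45 to 1.01), and at -0.15 without the spleen array numbered 3. Ccr7, a chemokine receptor of lymph node homing, differed by 0.18 and -0.27 within the 2 numbers. Its list of 13 tested genes had 2 higher and 0 lower at an unadjusted p under 0.05 (4.09% and 4.56% of all genes). In both pairs 5 were higher and 4 lower (26.4% and 26.6% of all genes), and the median was -0.07.

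Glycan synthesis genes held a pair that was dim in liver cultures. Gcnt2, which branches polylactosamine chains, was at 6.06, 6.70 and 6.60 in Liver 2, 3 and 4 and 7.77 and 7.05 in Spleen 3 and 4, a difference of -0.83 (95% interval -1.36 to -0.30, limma adjusted p 0.446). Its other probe sets, all dimmer, disagreed in sign, at -0.44, -0.77, 0.45, -0.80, -0.07 and 0.21. Csgalnact1, which starts chondroitin chains, was at 6.47, 7.04 and 6.33 against 7.51 and 7.49, a difference of -0.84 (95% interval -1.37 to -0.30). A second, dimmer probe set of Csgalnact1 gave -0.66, with 0.02 within number 3 and -1.54 within number 4. St6gal1, a sialyltransferase, lay at -0.35 (95% interval -0.68 to -0.01), and its second, dimmer probe set gave -0.12. These genes were the 3 members of 10 at an unadjusted p under 0.05, all lower (4.56% of all genes), and the list median was -0.02. On the probe sets used for Gcnt2 and Csgalnact1 no liver array reached a spleen array, which was so for 12.8% of all genes.

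Inhibitory receptors showed no shared direction. Pdcd1, the receptor PD-1, was at 9.29, 9.05 and 9.27 in Liver 2, 3 and 4 and 8.57 and 8.83 in Spleen 3 and 4, a difference of 0.54 (95% interval 0.09 to 0.99, limma adjusted p 0.520). Havcr2, the receptor TIM-3, lay at 0.44 (95% interval 0.17 to 0.71), and Cd200, the ligand of an inhibitory receptor of myeloid cells, at -0.50 (95% interval -0.84 to -0.17). Of 10 tested, 2 lay higher and 1 lower at an unadjusted p under 0.05 (4.09% and 4.56% of all genes), and the median was 0.02. The chemokines Ccl3 and Ccl4, which activated T cells release to draw in monocytes and other T cells, lay at 0.78 (95% interval 0.25 to 1.32) and 0.50 (95% interval 0.13 to 0.86). Within number 3 they differed by 0.37 and 0.16 and within number 4 by 1.21 and 0.77. The 7 tested chemokines had a median of 0.44, at 0.11 within number 3 and 0.86 within number 4. In both pairs 4 (57.1%) were higher and 0 lower, against 26.4% and 26.6% of all genes.

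**Figure D4:**
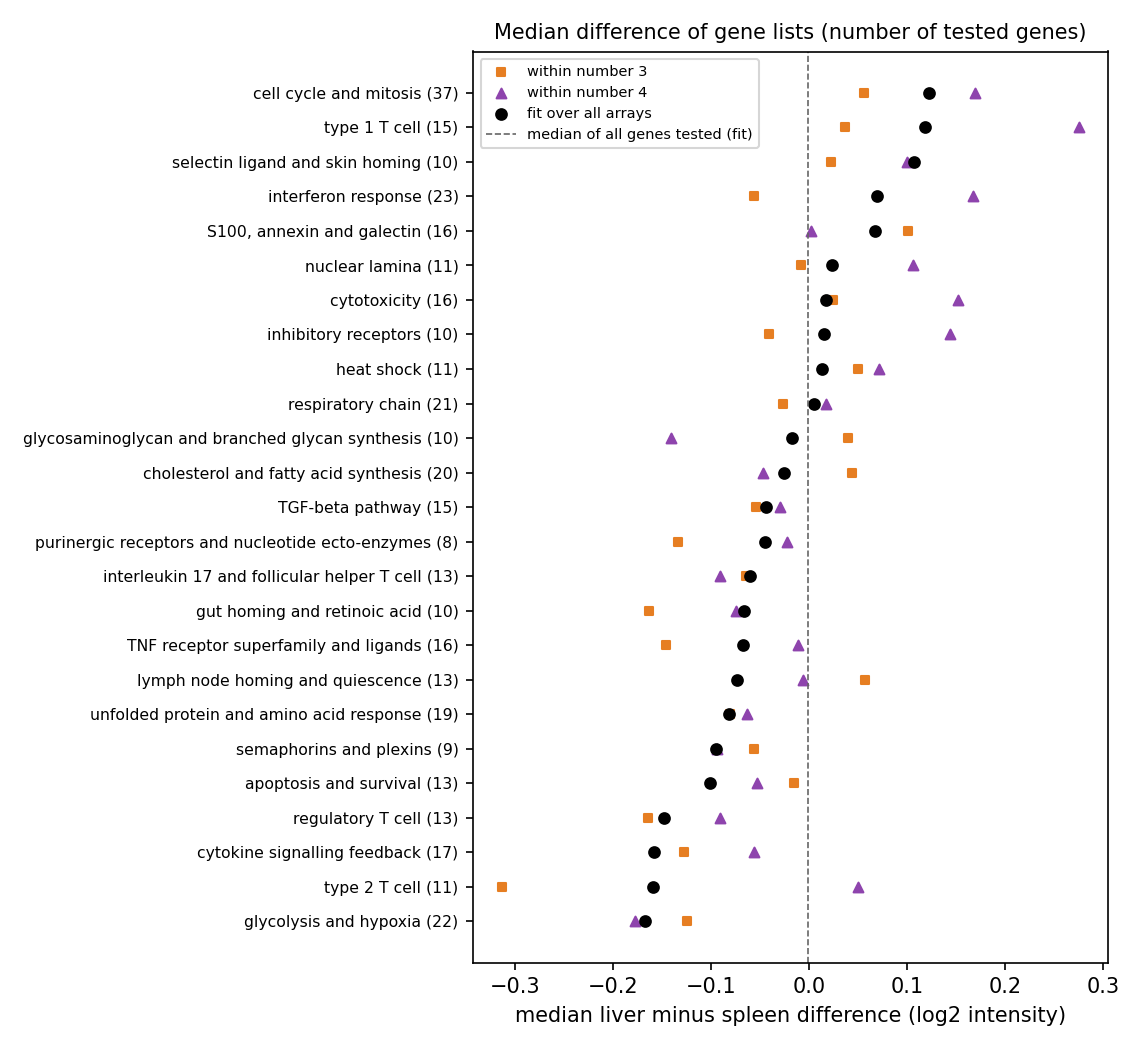
Median liver minus spleen difference (log2 intensity) of the function lists with at least 8 tested genes, in the fit over all arrays (black), within number 3 (orange squares) and within number 4 (purple triangles). The list medians of the fit run from -0.17 for glycolysis and hypoxia to 0.12 for cell cycle and mitosis, around the dashed median of all genes at -0.00.

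The remaining function lists gave medians close to that of all genes. At an unadjusted p under 0.05, 4.09% of all genes lay higher and 4.56% lower. In the S100, annexin and galectin list of 16, 3 lay higher and 1 lower at an unadjusted p under 0.05 with a median of 0.07, led by S100a4, Anxa6 at 0.23 and S100a10 at 0.21. In the interferon response list of 23, 2 lay higher, Mx1 at 0.61 (95% interval 0.10 to 1.11) and Ifit2 at 0.39 (95% interval 0.02 to 0.76), both antiviral genes, with a median of 0.07. In the nuclear lamina list of 11, 1 lay higher and 1 lower. Lmna, the A-type lamin, was at 9.69, 9.87 and 9.06 against 9.07 and 8.78, a difference of 0.54 (95% interval 0.19 to 0.89), while its 3 dimmer probe sets gave 0.08, -0.33 and -0.54. Lmnb1, a B-type lamin, lay at 0.17 (95% interval -0.01 to 0.36).

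Stress and metabolic lists held few members at an unadjusted p under 0.05, where 4.09% of all genes lay higher and 4.56% lower. Of 19 genes of the unfolded protein and amino acid responses 1 lay higher and 1 lower, with a median of -0.08. The cholesterol and fatty acid synthesis list of 20 had 1 higher and 2 lower, with a median of -0.02. The respiratory chain (21 genes, median 0.01), heat shock (11 genes, median 0.01) and apoptosis and survival (13 genes, median -0.10) lists had 0 in either direction. Of the TGF-beta pathway list, 1 of 15 lay lower, with a median of -0.04, and of the purinergic list 1 of 8, also with a median of -0.04.

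The labelled cells were checked against their markers. Cd3e, a chain of the T cell receptor complex, was at 11.09, 10.64 and 11.83 in Liver 2, 3 and 4 and 10.92 and 11.68 in Spleen 3 and 4. Cd8a and Cd4, the coreceptors of killer and helper T cells, lay at 11.48 to 11.85 and 9.99 to 10.27 in liver and at 11.54 to 11.66 and 10.18 to 10.38 in spleen cultures. All liver levels thus overlapped the spleen levels or lay within 0.4 of them. Of 13 tested T cell markers 0 were at an unadjusted p under 0.05, with a median of 0.04 and summed intensities of 39838 to 51975 in liver and 39422 to 46050 in spleen cultures.

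RNA of the stimulating dendritic cells may be present beside that of the T cells. Their 15 tested markers had 0 at an unadjusted p under 0.05 and a median of 0.00. The summed intensity of the 18 measured markers followed the array number, at 20659 and 22481 in Liver 3 and Spleen 3 and 11985 and 11326 in Liver 4 and Spleen 4, and their part in the other values was not tested. Hepatocyte markers were dim everywhere: 0 of 14 reached the level for testing, and they summed to 471 to 540 in liver and 542 to 826 in spleen cultures. Macrophage and Kupffer cell markers had 6 of 18 tested, with 1 higher and 0 lower at an unadjusted p under 0.05 (4.09% and 4.56% of all genes). The 1 was Ccr2, at 0.52, with 1.03 within number 3 and 0.01 within number 4. The sums were 4565 to 4897 in liver against 4792 to 5260 in spleen cultures. Most of each sum was Ctss and Ccr2, while Clec4f, Vsig4 and Marco were too dim to test. The B cell list had 1 higher and 1 lower among 8 tested (4.09% and 4.56% of all genes), and the plasmacytoid (3 tested) and endothelial (3 tested) lists had 0.

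Lum had the smallest p among the markers of non-lymphoid cells. It was at 7.21, 8.66 and 7.80 in Liver 2, 3 and 4 and 9.37 and 8.60 in Spleen 3 and 4, a difference of -0.72 (95% interval -1.06 to -0.39, limma adjusted p 0.371). The 12 fibroblast markers, of which 3 were tested, summed to 823 to 1135 in liver and 1266 to 1515 in spleen cultures, and their part in other differences was not tested. Epor, the erythropoietin receptor, lay at -0.66 (95% interval -1.04 to -0.28). The summed intensity of the 6 erythroid markers was 3618 to 6113 in liver and 5020 to 5575 in spleen cultures. Most of that sum was Tfrc, the transferrin receptor, at 11.76 to 12.58 in liver and 12.22 and 12.49 in spleen cultures. Only 2 of the 6, Epor and Tfrc, reached the level for testing, so the sum says little of erythroid cells. The platelet list had 1 of 5 tested genes lower at an unadjusted p under 0.05 (4.56% of all genes). Neutrophil and mast cell lists had 1 tested gene each, neither at that threshold, and summed to 514 to 619 against 712 to 778 and to 778 to 1224 against 886 to 1613.

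The cultures with MLN and PLN dendritic cells place these values. In the same fit, liver against MLN gave 307 passing genes (4.13%) and liver against PLN 111 (1.49%), while MLN against spleen gave 16 (0.215%) and PLN against spleen 0 (0%, with 603 at an unadjusted p under 0.05 in limma). These comparisons share the liver or the spleen arrays and are given side by side only. Spleen has 1 array fewer, and the median SE was 0.128 in comparisons with spleen and 0.111 between the other organs.

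For several genes the spleen level lay between those of liver and MLN. For Tgm2 the difference was -2.84 between liver and MLN (limma adjusted p 0.0003), -1.27 between liver and spleen and 1.57 between MLN and spleen (adjusted p 0.0645). Hic1 gave -1.48 between liver and MLN and -0.70 between liver and spleen, and Egln3 gave -0.77 and -0.52. Fut7 lay in the opposite order, at 1.83 between liver and MLN, 0.63 between liver and spleen and -1.20 between MLN and spleen (limma adjusted p 0.0267). H2-Q10 and Dgat1 were lower in liver than in MLN cultures (limma adjusted p 0.0005 and 0.0011) and than in PLN cultures (0.0042 and 0.0279). For Casp4 and Ttc27 the spleen arrays were the low ones. Casp4 differed by 0.16 between liver and MLN and by 0.11 between liver and PLN, against 0.72 between liver and spleen. Ttc27 differed by 0.08 and 0.03 between liver and the MLN and PLN cultures, against 0.85 between liver and spleen. The test of MLN against spleen gave 0.56 for Casp4 (limma adjusted p 0.0912) and 0.76 for Ttc27 (adjusted p 0.0754), so neither passed. Il17a gave -1.28 between liver and PLN (limma adjusted p 0.0025) and -0.24 between liver and MLN (adjusted p 0.394), so spleen and PLN formed the high side for this cytokine.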

How the data were processed

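RNA of 11 mouse T cell cultures was measured on single-colour arrays. The deposited table holds 1 linear intensity per probe set and array, scaled by the authors (read from the values: the mean after trimming 2% at each end was 500.2 on every array); how they summarised probes, the software and the protocols were not given in the sources used here. Of 22690 probe sets, 64 controls were left out; 20393 had 1 gene symbol, 691 several and 1606 none, and 20364 symbols were updated to GRCm38.p6. Intensities from 0.1 to 21556.3 were transformed as log2(intensity + 16), which understates differences of dim genes, and quantile normalized, since array medians spanned 0.22. The probe set of highest mean stood for each of 12393 genes, and the upper 60% by mean (7436 genes, mean level above an intensity of 104.7) were tested.

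Limma 3.58.1 in R 4.3.3 (lmFit, eBayes with a variance trend) fitted 4 organ means and the replicate number as a fixed block on all 11 arrays, with 5 residual degrees of freedom and Benjamini-Hochberg adjustment at 0.05. The script was tested on simulated data. The numbers pair the arrays: after removing organ means, 15 same-number pairs correlated at 0.412 to 0.731 and 30 others at -0.708 to 0.0841, and 11 of 11 arrays correlated best with their own number. The members and the 39 gene lists were chosen with earlier results of these data known. Named were the 8 genes of smallest p in each direction, up to 4 members of smallest p per list, and a fixed set of lineage, homing and cytokine genes; those reported are the ones closest to each list's function. Alternatives varied the block, the arrays, the pseudocount, the scaling, the filter, the probe set and the variance model.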

Additional observations from a re-analysis of the deposited data

How the results depend on the processing

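No gene passed with all 11 arrays under no replicate block (0 called), a random block, both pseudocounts, both other scalings, both filters, both probe set rules or no variance trend, nor on the arrays numbered 3 and 4 or the liver and spleen arrays alone. Leaving out 1 array gave 0 to 6 passing genes: 6 without the spleen array numbered 4, 2 without the liver array numbered 3 and 1 without the spleen array numbered 3. The share of passing genes that lay higher has no value, since none passed. The 643 genes at an unadjusted p under 0.05 became 131 with no replicate block and 105 with no replicate block on the liver and spleen arrays alone, and lay between 488 and 750 when 1 array was left out. Fitted differences were recomputed for 69 named genes, and 1 of these changed sign, Itga4, which ran from -0.15 to 0.72 when 1 array was left out. Of these genes, 3 came to pass, Il17a, Gzmd and Gzme, without the spleen array numbered 4. Under median centring 72.8% of the genes at an unadjusted p under 0.05 lay higher, against 47.3%. The 2 spleen arrays limit the precision of every comparison here.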

Other observations

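Of the 7436 genes tested, 10 had a fitted difference over 1 in size. All were chosen from the values of these data, Il17a, Tgm2, Tgfb3 and Hspa1b by the rule on smallest p. Ly6i, a gene of the Ly6 surface protein family, was at 7.87, 5.24 and 7.68 in Liver 2, 3 and 4 and 8.18 and 8.45 in Spleen 3 and 4, but it also ran from 5.06 to 7.81 over the MLN and PLN arrays. Osbpl5 lay 2.10 higher in liver within number 3 and 0.15 higher within number 4. Cplx2 differed by -2.12 and -0.65, and Tgfb3, a TGF-beta ligand, by -1.54 and -0.28. Hspa1b, an inducible heat shock chaperone, was at 7.18 to 7.86 on the liver arrays and at 7.71 and 8.22 on the spleen arrays. It differed by 0.001 within number 3 and -1.04 within number 4. The fitted difference was -1.04, and -0.38 in the fit without the number. Hspa1b reached 10.65 and 10.85 in the MLN and PLN arrays numbered 2, a number without a spleen array. The fit sets the liver array numbered 2 against these arrays.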
